A study of Mus musculus with 6 samples.

Results

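The protein-coding genes of the cytosolic ribosome were examined in mouse T cells with a deleted or a floxed gene for the arginine methyltransferase PRMT5. Members were the protein-coding entries named Rpl or Rps followed by a number, plus Rplp0, Rplp1, Rplp2 and Rpsa, without the Rps6k kinases and without entries named as pseudogenes (-ps). This gave 86 of 54525 gene entries, 52 with large subunit names (Rpl) and 34 with small subunit names (Rps). Of the 104 entries that the name pattern found, 10 were Rps6k kinases and 8 were -ps entries. Among the 86, 77 were canonical subunit genes (46 large, 31 small) and 7 were paralogs (Rpl3l, Rpl10l, Rpl22l1, Rpl36al, Rpl39l, Rps27l and Rps27rt). The remaining 2, Rpl7l1 and Rps19bp1, are members by name alone and do not encode standard ribosome subunits. The rule itself uses gene names only.

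KO cultures (n = 3) carried the genotype iCD4-PRMT5delta/delta, and WT cultures (n = 3) carried iCD4-PRMT5fl/fl. WT therefore means floxed Prmt5, and both genotypes were on the C57BL/6 background. All cultures started from naive CD4 T cells of spleens and lymph nodes, received coated anti-CD3/CD28 with TGFβ and IL-6, and were harvested at 72 hours, a protocol that drives cells toward the interleukin-17 producing Th17 type. Total RNA was sequenced as stranded libraries after ribosomal RNA removal. The labels do not say whether the cultures came from separate animals, nor which Cre driver or exons the iCD4 alleles involve, so p-values measure the spread between these cultures.

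A cytosolic ribosome holds a small subunit, which binds mRNA and reads its codons, and a large subunit, which joins amino acids into protein. Each subunit is built in the nucleolus and cytoplasm from ribosomal RNA and one copy of most ribosomal proteins, so cells make these proteins in near-equal numbers. Most mammalian ribosomal protein mRNAs begin with a 5′ terminal oligopyrimidine (TOP) tract, a run of C and T at the cap through which mTORC1 and LARP1 control their translation. Activated T cells build many ribosomes as they grow and divide.

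The start regions of 7 members are printed to show how the pyrimidine run near the transcription start varies. Printed are Rps27l, which rose in KO cells, and the paralog Rpl22l1, which fell. The others are those of the most abundant genes that fell that had a RefSeq entry, in the large (Rplp0, Rpl23) and the small subunit (Rps2, Rpsa, Rps9). Each window holds the 30 bases before the RefSeq start and the first 20 bases of the transcript on build GRCm38.p6, and capitals mark the longest run of C and T that touches the interval from 5 bases before to 5 bases after the start.
Rps27l, chr9:66946056-66946105, plus strand: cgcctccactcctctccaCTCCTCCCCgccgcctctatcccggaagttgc
Rpl22l1, chr3:28805478-28805527, plus strand: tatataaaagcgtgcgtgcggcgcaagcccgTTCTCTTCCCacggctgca
Rplp0, chr5:115559437-115559486, plus strand: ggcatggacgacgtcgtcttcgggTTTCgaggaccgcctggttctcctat
Rpl23, chr11:97782420-97782469, minus strand: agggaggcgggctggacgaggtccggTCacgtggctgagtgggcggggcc
Rps2, chr17:24720033-24720082, plus strand: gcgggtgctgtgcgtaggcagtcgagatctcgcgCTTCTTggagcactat
Rpsa, chr9:120127736-120127785, plus strand: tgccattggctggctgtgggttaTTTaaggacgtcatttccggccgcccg
Rps9, chr7:3704011-3704060, plus strand: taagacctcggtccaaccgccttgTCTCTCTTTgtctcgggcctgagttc
Rps27l and Rps9 each had a run of 9 C or T bases there, Rpl22l1 had 10, Rps2 had 6, Rplp0 had 4, Rpsa had 3 and Rpl23 had 2. The marked runs of Rps27l, Rplp0, Rpsa and Rpl23 lay wholly before the RefSeq start, outside the transcript. Those of Rpl22l1 and Rps2 began after the start, and that of Rps9 crossed it. These letters alone do not show a TOP tract. Over the 66 members with a RefSeq entry, 24 (36.4%) had a run of 8 or more, against 11.4% of 27025 genes with an entry. Such a run, whether before, across or after the start, was present in 10 of 27 members that fell, in 1 of 1 that rose and in 13 of 36 that were not called. The motif CCGGAA, the core that ETS-family factors bind, searched on both strands of the 250 bases upstream, lay in 26 members (39.4%), against 13.6% of all genes; Rps2 and Rpsa were among them. In Rps27l the same letters stand in the printed bases after the start, outside the interval searched. Such a match is a description of the letters and not a binding site. Rps27l has a second RefSeq start, with a run of 4.

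**Figure D1:**
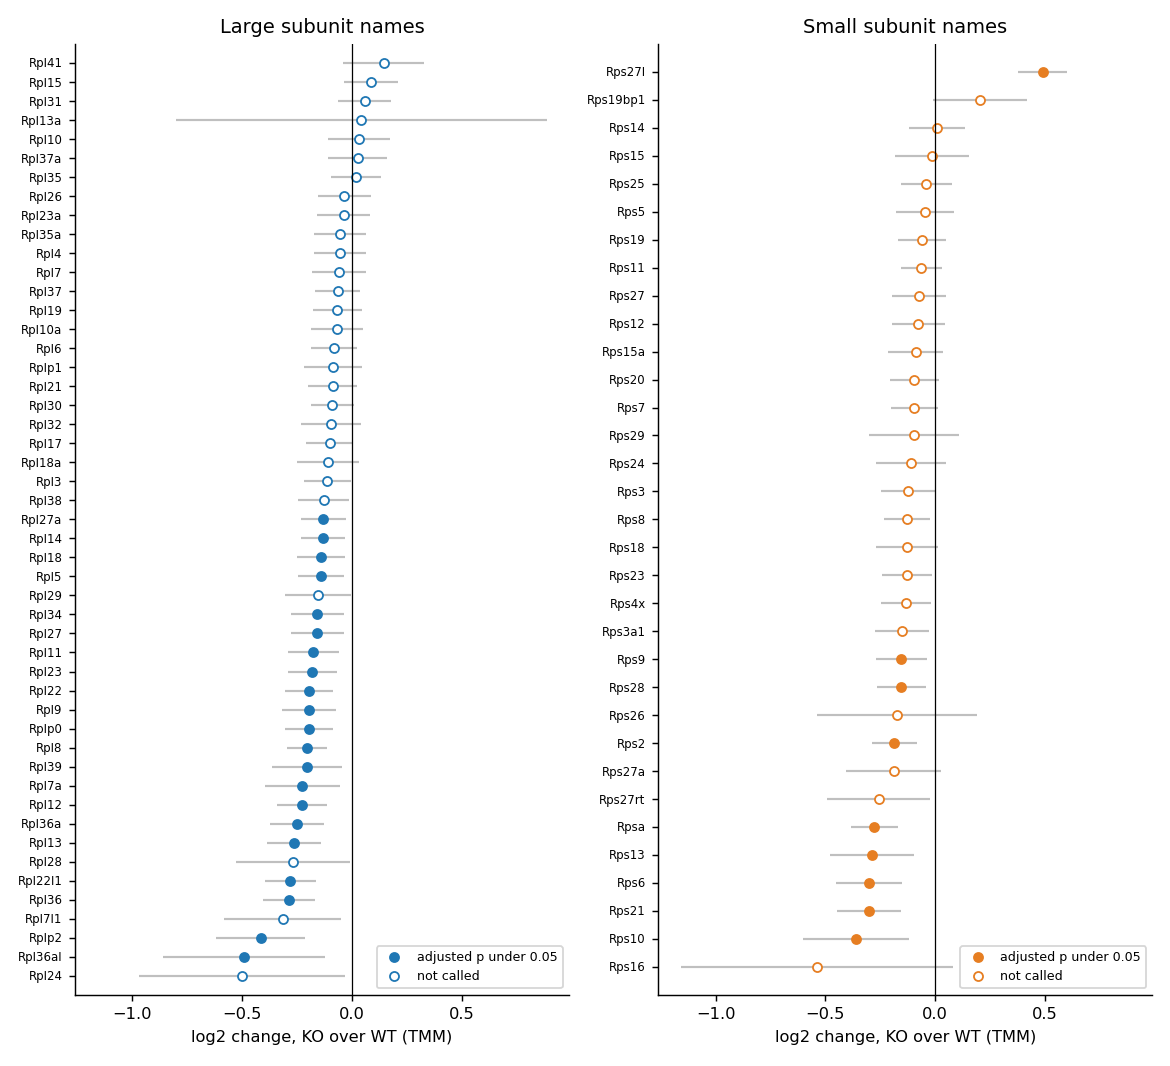
Log2 change of KO over WT (horizontal axis, TMM scaling) for 82 of the 84 tested members, ordered by change, with large subunit names on the left and small subunit names on the right. Points are edgeR estimates, lines are 95% confidence intervals and filled points passed an adjusted p of 0.05; Rpl39l, whose interval is wider than the axis, is left out. Most points lie left of 0 in both panels under this scaling, which spike-in scaling moves to around 0, and Rps27l is the filled point to the right.

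The 6 libraries held 36489789 to 41467126 counts in KO cells and 36011906 to 43141474 counts in WT cells. Prmt5 had 52.4, 43.8 and 52.9 CPM in KO cells, against 109, 137 and 118 CPM in WT cells, where CPM is the count per 1000000 counts of a library size adjusted by trimmed-mean (TMM) scaling (log2 change -1.29 ± 0.11 SE, adjusted p = 0.000120). Summed T cell markers ranged over 1805 to 1904 CPM in KO cells and 1855 to 2054 CPM in WT cells. Of these 8 markers, 1 was called higher in KO (Cd3e, log2 change 0.39) and 2 lower (Cd28 at -0.49 and Thy1 at -0.43). Markers of other cells were also present: B cell markers summed to 39.1 to 105.8 CPM in KO cells and 4.18 to 21.2 CPM in WT cells (5 of 6 called higher in KO), myeloid markers to 9.62 to 29.0 CPM in KO cells and 2.78 to 3.09 CPM in WT cells (4 of 5 tested called higher), NK and innate markers to 62.0 to 116 CPM in KO cells and 66.8 to 82.9 CPM in WT cells (2 of 3 tested higher, 1 lower), and CD8 markers to 14.7 to 17.2 CPM in KO cells and 5.58 to 7.88 CPM in WT cells (2 of 2 higher). Csf1r was at 0 in WT replicate 3, and among innate markers Ncr1 was at 0 in WT replicates 2 and 3 and Klrb1c in WT replicate 2. Their part in the results was not tested. Genes of the Y chromosome summed to 566, 74.4 and 585 CPM in KO replicates 1, 2 and 3 and to 0 in every WT library, so genotype and sex of the donors cannot be told apart in the comparison as a whole. The column headers of the KO libraries carry 2 numbers and those of WT libraries 1, and the labels do not explain this.

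The part of the libraries taken by ribosomal protein transcripts did not differ between genotypes beyond the spread of the cultures. Their share of all gene counts was 10.6%, 10.9% and 10.7% in KO cells (10.7% ± 0.158, SD, n = 3), against 10.7%, 11.01% and 10.9% in WT cells (10.8% ± 0.168, SD, n = 3). The difference of -0.0989 percentage points was smaller than the SD of 0.163 within groups, and the libraries overlapped. In bulk RNA, fewer cells of a type and less RNA per cell cannot be told apart.

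The balance of the subunits overlapped between genotypes too. Summed per gene length, large subunit counts exceeded small subunit counts by a factor of 1.43, 1.45 and 1.45 in KO cells (1.45 ± 0.0135, SD), against 1.45, 1.41 and 1.46 in WT cells (1.44 ± 0.0277, SD). Per spike-in count, that is per count of the synthetic RNAs added to each sample, members had 65.9, 55.7 and 53.1 counts in KO cells (58.3 ± 6.74, SD), against 49.2, 57.5 and 66.6 in WT cells (57.8 ± 8.71, SD). For this last measure the difference of the means was far smaller than either SD.

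**Figure D2:**
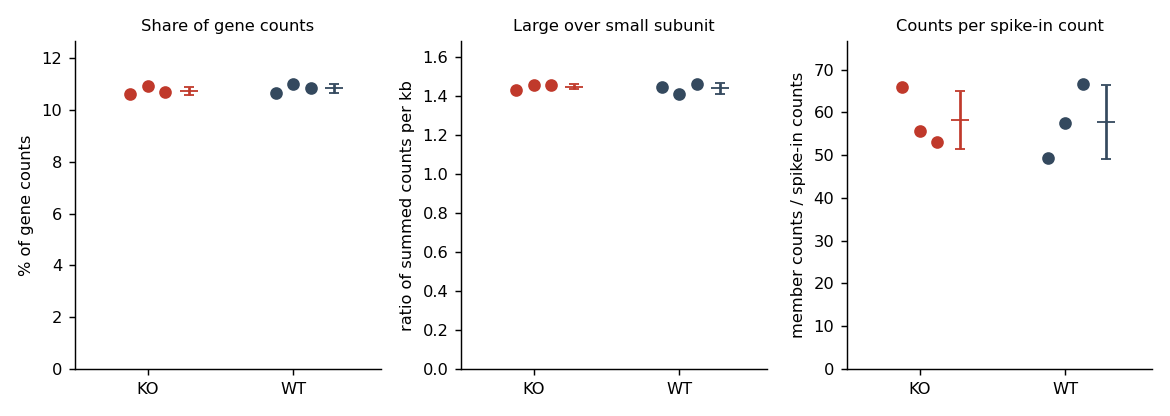
Each point is 1 library, with the group mean and SD beside it, for KO (left) and WT (right) in 3 panels: members' share of gene counts in percent, the ratio of summed large to small subunit counts per kb, and member counts per spike-in count. The KO and WT points overlap in every panel, and the spread is widest for the spike-in ratio, at 53.1 to 65.9 in KO and 49.2 to 66.6 in WT.

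Levels per deposited gene length differed widely among members but kept nearly the same order in both genotypes. These levels and ranks depend on that length, which was 5179 bases for Rps15a and 588 for Rpl23a. Before division by length, Rps15a had a mean of 1112 CPM and Rpl23a of 1745 CPM over the 6 libraries. How much of the range comes from the deposited lengths was not tested. Over the 74 canonical genes that share fewer than 300 same-strand exon bases with another gene, the level ran from 208 CPM per kb (Rps15a) to 2930 CPM per kb (Rpl23a) in KO cells, with a median of 1207, and from 221 CPM per kb (Rps15a) to 3234.5 CPM per kb (Rplp0) in WT cells, with a median of 1322. Rpl23a, whose product lines the exit of the peptide tunnel, had, in CPM per kb, 2929.9 ± 101 in KO cells and 3006 ± 134 in WT cells (SD, n = 3 each). Rps4x, the X-linked gene of a small subunit protein, had 2637 ± 134 in KO cells and 2892 ± 17.8 in WT cells on the same scale. The groups overlapped for Rpl23a and not for Rps4x. Rps2 had, in CPM per kb, 2177 ± 38.8 in KO cells and 2477 ± 78.8 in WT cells, and Rplp1, of the stalk, had 2688 ± 130.4 in KO cells and 2853 ± 127 in WT cells. Among the 50 genes with the highest CPM per kb, 37 were members in KO cells and 33 in WT cells, and among the top 200 genes 72 and 71 were members in KO and WT cells. As a description, the rank correlation of the KO and WT means was 0.992 over 84 members, which share gene lengths and libraries.

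**Figure D3:**
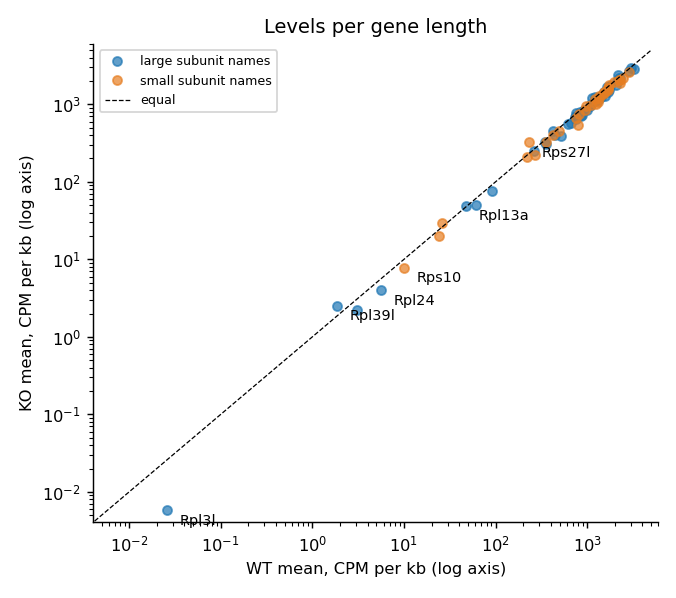
Mean level in KO (vertical) against WT (horizontal), in CPM per kb of deposited gene length on log axes, for 84 members with counts in both genotypes; blue points have large and orange points small subunit names, and the dashed line marks equal levels. Canonical genes gather at the upper right above about 200 CPM per kb, with paralogs and overlapped genes such as Rpl39l, Rpl24, Rps10 and Rpl13a below them.

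Under TMM scaling, which takes the bulk of genes as its reference, ribosomal protein mRNAs were mostly slightly lower in KO cells, a decrease not seen with spike-in scaling. Of 84 members that passed the filter on low counts, 29 (34.5%) fell and 2 rose at an adjusted p under 0.05 (edgeR quasi-likelihood test, Benjamini-Hochberg over all 16006 genes), and 53 were not called. Over all genes tested, 20.9% fell and 21.7% rose, 42.5% in either direction. The sign was negative for 72 members and positive for 12, while 50.2% of all genes were negative. The median log2 change over tested members was -0.13 and over all genes -0.0026, and all KO libraries lay below all WT libraries for 45 members (27.5% of all genes) and above them for 3 (28.2% of all genes). The members not tested were Rpl3l, the heart and skeletal muscle paralog of Rpl3, with 1, 0 and 0 counts in KO cells against 2, 2 and 0 in WT cells, and Rpl10l, the testis paralog of Rpl10, with 0, 1 and 0 counts in KO cells against 0 in each WT library.

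The number of lower calls depended on the libraries used and on the scaling, for members and for all genes. Of 84 members it was 11 without KO replicate 1 (2469 of 16423 genes) and 14 without KO replicate 3 (2629 of 16325). It was 13 without WT replicate 3 (2610 of 16478) and 26 without KO replicate 2 (2765 of 16388). Without WT replicate 1 it was 30 (3169 of 16581), and without WT replicate 2 it was 21 (3488 of 16469). When KO was limited to replicate 2, the library with the least Y-linked RNA, the median of the members was -0.084. After adjusting for each library's Y-linked RNA 4 members fell (1648 of 16006 genes) and the median was -0.087. The number of higher calls was 2 in each of the fits with a count given here, and Rps27l was among them.

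The subunits had nearly equal median changes. Among large subunit names 21 of 50 tested genes fell and 0 rose (0 also with DESeq2 and with limma-voom, and 0 at an unadjusted p under 0.05), and among small subunit names 8 of 34 fell and 2 rose, read against 20.9% and 21.7% of all genes. With gene totals alone as the scaling, 5 large subunit names fell and 4 rose, beside 2412 and 4453 of all 16006 genes. Under TMM the median log2 change was -0.13 in both subunits, and the large minus small difference of the medians was -0.00335, smaller than the SD of this difference between libraries of a genotype, 0.0222. Restricted to the 77 canonical genes, 27 fell, 1 rose and the median was -0.13.

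Of the 3 genes of the ribosomal stalk, the flexible arm of the large subunit that recruits elongation factors, Rplp2 and Rplp0 fell. Rplp2 had 408, 324 and 383 CPM in KO cells, against 497, 515 and 476 CPM in WT cells (log2 change -0.42 ± 0.087 (SE), adjusted p = 0.00686). The KO libraries all lay below the WT libraries, with KO replicate 2 the lowest, and the call was kept in 20 of 21 alternative analyses, the exception being spike-in scaling. Rplp0, the stalk's base, had 3758, 3949 and 3795 CPM in KO cells, against 4205, 4539.8 and 4433 CPM in WT cells (log2 change -0.20 ± 0.046 (SE), adjusted p = 0.0118). It too had no overlap between genotypes, but the adjusted p was 0.0533 without KO replicate 1. Rplp1, the partner of Rplp2, was at log2 change -0.086 and did not pass (adjusted p = 0.255).

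Among canonical large subunit genes outside the stalk, Rpl36 had the most negative change that passed. Rpl36 had 500.3, 498 and 486 CPM in KO cells, against 575, 631 and 603 CPM in WT cells (log2 change -0.29 ± 0.051 (SE), adjusted p = 0.00345). Its groups did not overlap, and its call was kept when each library was left out in turn. The call was kept in 18 of 21 alternatives, and with spike-in scaling Rpl36 was at -0.15 and did not pass (adjusted p = 0.663). Rpl11 and Rpl5 form, with a small ribosomal RNA, the particle that binds and inhibits MDM2 when ribosome assembly is disturbed. Rpl5 had 2479, 2669.6 and 2505 CPM in KO cells, against 2791, 2851 and 2801 CPM in WT cells (log2 change -0.14 ± 0.045 (SE), adjusted p = 0.0382), and Rpl11 was at log2 change -0.18 (adjusted p = 0.0243). Both sat close to the threshold: without KO replicate 1 the adjusted p was 0.152 for Rpl5 and 0.0729 for Rpl11, without KO replicate 3 it was 0.124 and 0.0768, and without WT replicate 3 it was 0.0864 and 0.0758; Rpl5 also lost the call without WT replicate 1 (0.0507).

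The other large subunit genes that fell were Rpl7a, Rpl8, Rpl9, Rpl12, Rpl13, Rpl14, Rpl18, Rpl23, Rpl27, Rpl27a and Rpl34, with log2 changes from -0.26 (Rpl13) to -0.13 (Rpl27a). Rpl13 had 1601, 1696 and 1634 CPM in KO cells, against 1874, 2079 and 1967 CPM in WT cells, and Rpl27a, the weakest of the 11, had 1332, 1375 and 1295 CPM in KO cells, against 1441, 1489.9 and 1450.0 CPM in WT cells. The other small subunit genes that fell were Rps9, Rps13 and Rps28, at -0.15, -0.29 and -0.15. Of these 14 genes, which were named after their values were seen, Rpl13 kept its call in 18 of 21 alternatives and Rpl27a in 6.

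Large subunit genes that did not pass spanned both signs. Rpl3, which helps shape the peptidyl transferase centre, was at -0.11 (adjusted p = 0.0904; 0.0383 without WT replicate 1), and Rpl38, needed in mouse embryos for translation of certain Hox mRNAs, was at -0.13 (adjusted p = 0.0749; 0.0341 without KO replicate 2). Rpl7 was at -0.058 and Rpl23a at -0.037 (adjusted p = 0.410 and 0.6004). The change was positive for 8 large subunit names. Among these were Rpl41, the smallest subunit protein, at 0.14, Rpl15 at 0.087 and Rpl31 at 0.058 (adjusted p = 0.182, 0.228 and 0.408). Rpl10, an X-linked gene whose product is among the last to join the large subunit, was at 0.032 (0.700).

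In the small subunit, Rpsa, Rps6 and Rps21 fell. Rpsa, which sits on the back of the small subunit and also serves as the laminin receptor precursor, had 3615, 3778 and 3593 CPM in KO cells, against 4241, 4572 and 4497 CPM in WT cells (log2 change -0.28 ± 0.047 (SE), adjusted p = 0.00268). Rps6, the ribosomal substrate of the S6 kinases downstream of mTORC1, had 1199, 1206 and 1212 CPM in KO cells, against 1408, 1632 and 1418 CPM in WT cells (log2 change -0.30 ± 0.064 (SE), adjusted p = 0.00741). Rps21, which contacts Rpsa, had 489, 499 and 472 CPM in KO cells, against 589, 649 and 563 CPM in WT cells (log2 change -0.30 ± 0.063 (SE), adjusted p = 0.00663). All 3 genes had every KO library below every WT library, and each kept its call without any single library, but not when KO was limited to replicate 2 (adjusted p = 0.0749, 0.110 and 0.123).

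Proteins that methyltransferases of this enzyme's family are known to modify were looked up by name. Rps2, a substrate of PRMT3 in fission yeast and mammals, had 2408, 2405 and 2333 CPM in KO cells, against 2651, 2809 and 2669.5 CPM in WT cells (log2 change -0.19 ± 0.043 (SE), adjusted p = 0.0112). Rps10, a substrate of PRMT5 in human cells, had 7.06, 6.52 and 7.18 CPM in KO cells, against 9.06, 9.11 and 8.49 CPM in WT cells (log2 change -0.36 ± 0.10 (SE), adjusted p = 0.0263). The groups did not overlap for either gene. Rps10 stood at under 10 CPM and shares exon bases with another gene in the annotation, and its call was lost without KO replicate 1, 2 or 3 and without WT replicate 1 or 3 (adjusted p = 0.0751, 0.0702, 0.0516, 0.0563 and 0.0505).

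The other small subunit genes looked up did not pass. Rps3, at the mRNA entry site, was at -0.12 (adjusted p = 0.0940; 0.0444 without KO replicate 2), Rps4x at -0.13 (0.0599; 0.0320 without KO replicate 2) and Rps3a1 at -0.15 (0.0533; 0.0162 without KO replicate 2). Rps19, the gene most often mutated in human Diamond-Blackfan anaemia, was at -0.060 (0.348), and Rps14 was at 0.00935 (0.908). Rps27a, which is made as a fusion with ubiquitin, was at -0.19 (0.140), and without WT replicate 2 it was at -0.29 (0.00395).

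Rps27l rose and had the most positive change that passed. Rps27l (ENSMUSG00000036781.13, chromosome 9, 66946086 to 66949516, plus strand, GRCm38), a paralog of Rps27 known as a p53 target, had 189, 184 and 184 CPM in KO cells, against 131, 135 and 130.5 CPM in WT cells. The lowest KO library stood well above the highest WT library, and the means were 186 ± 3.11 CPM in KO cells and 132 ± 2.83 CPM in WT cells (SD, n = 3 each). The change was 0.49 ± 0.048 (SE) on the log2 scale, with a 95% confidence interval of 0.38 to 0.60 and an adjusted p of 0.000215. It was called higher in 21 of 21 alternatives, with log2 changes of 0.47 to 0.63 and a highest adjusted p of 0.0187.

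**Figure D4:**
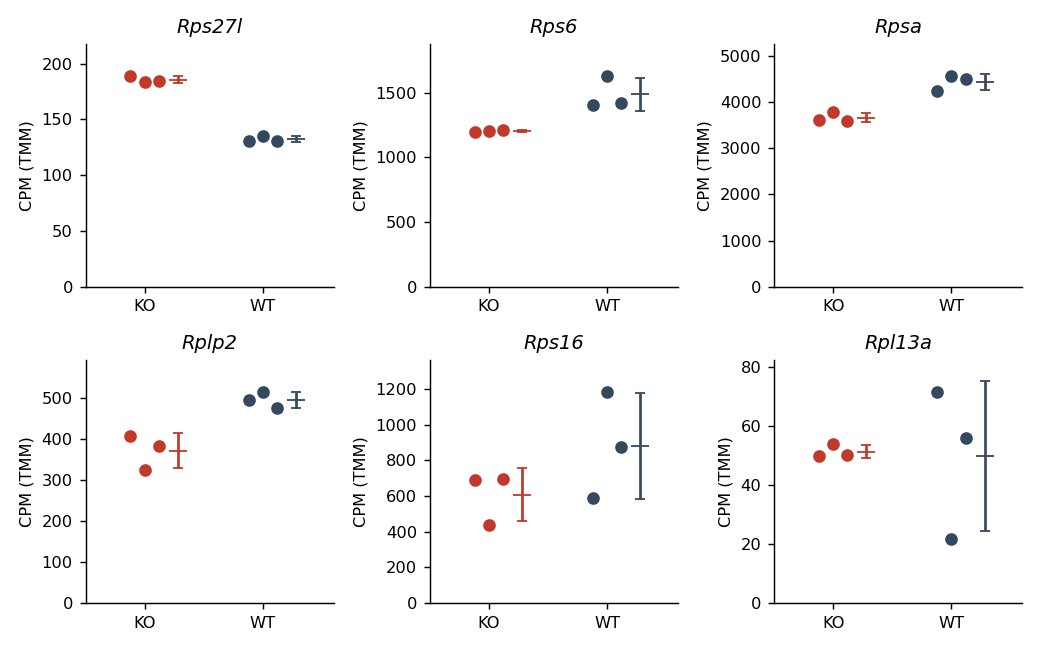
CPM (TMM scaling) of 6 members, with 1 point per library, KO left and WT right in each panel, and the group mean and SD beside the points. Rps27l has all KO points above all WT points, Rps6, Rpsa and Rplp2 have them below, and Rps16 and Rpl13a show wide scatter in WT, at 589.7 to 1185 CPM and 21.7 to 71.5 CPM.

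Of 5 tested paralogs, Rps27l rose, Rpl22l1 and Rpl36al fell and Rps27rt and Rpl39l were not called. Rps27, the parent of Rps27l, was at -0.074 and did not pass (adjusted p = 0.294), and Rps27rt, a retrotransposed copy close in sequence to Rps27, was at -0.26 (0.0760), with counts that reads shared with Rps27 make uncertain. Rpl22, an RNA-binding protein needed for αβ T cell development in mice, was at -0.19 (0.0130), and its paralog Rpl22l1 had 145, 149 and 141 CPM in KO cells, against 177, 179.9 and 171 CPM in WT cells (log2 change -0.28 ± 0.050 (SE), adjusted p = 0.00359). Both fell, and the libraries of Rpl22l1 did not overlap; Rpl22 lost its call without KO replicate 1 (0.0660), KO replicate 3 (0.0510) or WT replicate 3 (0.0549).

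Rpl36a and its paralog Rpl36al both fell. Rpl36a was at -0.25 (adjusted p = 0.00675), and Rpl36al, at a far lower level, had 2.64, 2.99 and 2.76 CPM in KO cells, against 4.02, 4.47 and 3.29 CPM in WT cells (log2 change -0.49 ± 0.16 (SE), adjusted p = 0.0401). The call of Rpl36al was lost without KO replicate 1, 2 or 3 (adjusted p = 0.125, 0.0632 and 0.0981) and without WT replicate 1 or 2 (0.0826 and 0.0983). Rpl39, at the exit of the peptide tunnel, was at -0.20 (0.0442), a call lost without any one library except KO replicate 2, with adjusted p from 0.0547 to 0.131. Its male germ cell paralog Rpl39l had 1.54, 4.11 and 0.463 CPM in KO cells, against 2.07, 0.663 and 1.79 CPM in WT cells, overlapping and not called (log2 change 0.43 ± 0.72 (SE), adjusted p = 0.666).

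The members that carry a ribosomal protein's name without being subunits also did not pass. Rpl7l1, a nucleolar protein related to Rpl7, was at -0.32 (adjusted p = 0.0600; 0.0455 without WT replicate 1). Rps19bp1, known as AROS, a partner of the deacetylase SIRT1, had 24.2, 23.5 and 27.0 CPM in KO cells, against 21.8, 19.99 and 23.1 CPM in WT cells (log2 change 0.20 ± 0.092 (SE), adjusted p = 0.114). Every KO library of Rps19bp1 lay above every WT library.

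Single libraries stood apart for a few members. The coefficient of variation over replicates had a median of 3.69% in KO cells and 3.74% in WT cells over 81 members with at least 5 CPM, and it passed 10% for 5 members in KO cells and 8 in WT cells. Rps16 had 689.7, 437 and 699 CPM in KO cells, against 589.7, 1185 and 876 CPM in WT cells (log2 change -0.54 ± 0.27 (SE), adjusted p = 0.143), with KO replicate 2 lowest and WT replicate 2 highest; the groups overlapped, and without WT replicate 1 the change was -0.77 and passed (adjusted p = 0.0322). Rps26, which lines the mRNA exit channel, had 629.5, 488 and 693 CPM in KO cells, against 574, 806 and 663 CPM in WT cells (log2 change -0.17 ± 0.16 (SE), adjusted p = 0.404) and overlapped in the same way. Across members the libraries moved together: WT replicate 2 was the highest WT library for 64 of the 81, WT replicate 1 the lowest for 63, and KO replicate 2 the highest KO library for 52.

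Several canonical genes were listed at low levels and share exon bases with another gene on the same strand in the GENCODE M21 annotation. Rpl13a shares 621 bases with Gm45713, Rpl24 shares 484 with Gm28037 and Rps10 shares 475 with RPS10-NUDT3, and the paralog Rpl36al shares 332 with Gm49383. The partners had between 0 and 10 counts per library. Rpl13a, which also acts in an interferon-controlled silencing complex in human monocytes, had 49.7, 53.8 and 50.2 CPM in KO cells, against 71.5, 21.7 and 56.0 CPM in WT cells (log2 change 0.043 ± 0.36 (SE), adjusted p = 0.936), with the lowest value in WT replicate 2; without that library the change was -0.32 and passed (adjusted p = 0.0340). Rpl24, whose product bridges the subunits, had 2.33, 3.37 and 2.39 CPM in KO cells, against 4.50, 3.32 and 3.61 CPM in WT cells (log2 change -0.50 ± 0.20 (SE), adjusted p = 0.0810) and overlapped. Whether the shared bases set these levels was not tested. In the same annotation, which placed 82 of the 86 members, 29 members hold 55 small nucleolar RNA genes, a class best known for guiding modification of ribosomal RNA.

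With spike-in scaling the members' changes centred near 0. With library sizes set to the summed spike-in counts, 0 members fell (8.52% of all genes) and 1, Rps27l, rose (19.3% of all genes, and 27.8% were called in either direction); with edgeR at an unadjusted p under 0.05 the counts were also 0 and 1, and no other tool was run with this scaling. The sign was negative for 36 members, against 37.9% of all genes. The median log2 change of the members was 0.00727, and that of all genes moved to 0.14. Rps27l was at 0.63 (95% confidence interval 0.23 to 1.03, adjusted p = 0.0108), while Rpsa was at -0.14 ± 0.20 (SE, adjusted p = 0.658) and Rplp2 at -0.27 ± 0.21 (0.381). The standard errors were larger than under TMM, and spike-ins made up 0.161%, 0.195% and 0.201% of counts in KO libraries and 0.216%, 0.191% and 0.163% in WT libraries, a spread within genotype that this scaling passes to every gene alike.

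The TMM factors were 1.03, 1.04 and 1.04 in KO libraries and 0.983, 0.946 and 0.960 in WT libraries. Scaling by gene totals alone, an alternative added after seeing the data, gave 8 members lower and 7 higher, a median of -0.018 for members and 0.11 for all genes. The direction of the members' change therefore depends on the scaling. These scalings shift all genes of a library alike, so the distance of the members from the median gene is fixed by construction and says nothing of stability. Other fits do not shift all genes alike. There the distance ran from -0.24 without a filter to -0.086 with the length trend removed, against -0.13 as reported. It was -0.087 after adjusting for Y-linked RNA and -0.091 when KO was limited to replicate 2. When each library was left out it ran over -0.15 to -0.11, and it was -0.13 with limma-voom and with the replicate block.

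**Figure D5:**
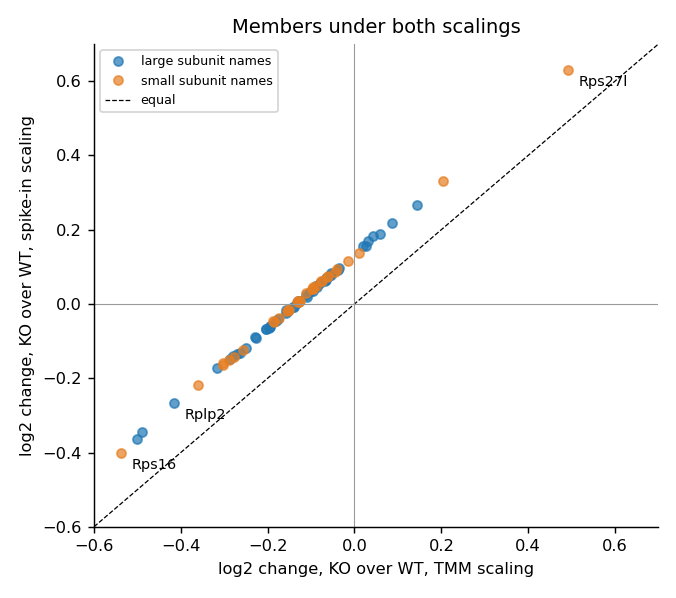
Log2 change of KO over WT under spike-in scaling (vertical) against TMM scaling (horizontal) for 82 of the 84 tested members; blue points have large and orange points small subunit names, and the dashed line marks equal values. All points lie above the dashed line by about the same distance, so that most members move from below 0 to around 0, while Rps27l stays the highest at 0.49 under TMM and 0.63 with spike-ins.

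The name rule leaves out Fau, which encodes a fusion of a ubiquitin-like protein with a ribosomal protein. Fau fell, with 794, 781 and 828 CPM in KO cells, against 951, 1088 and 1010.0 CPM in WT cells (log2 change -0.34 ± 0.060 (SE), adjusted p = 0.00314). It belongs to a list of 16 other TOP mRNAs, of which 3 fell and 5 rose, beside 20.9% and 21.7% of all genes, with a median of -0.040. In that list Tpt1, the tumour protein TCTP, had 411, 409 and 389 CPM in KO cells, against 648, 666 and 603 CPM in WT cells (log2 change -0.67 ± 0.055 (SE), adjusted p = 0.000112). Npm1, a nucleolar chaperone, was at 0.32 (adjusted p = 0.00167) and the initiation factor gene Eif3l at 0.33 (0.00179). With spike-in scaling Tpt1 was at -0.52 and still passed (adjusted p = 0.0431) and Fau was at -0.21 (0.508).

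Other translation genes were read from the same test with TMM scaling, in which 20.9% of all genes fell and 21.7% rose. Of 7 elongation factor genes 1 fell, Eef2, the translocase, at -0.23 (adjusted p = 0.0235), and 0 rose (0 with DESeq2 and limma-voom, and 1 at an unadjusted p under 0.05), with a median of -0.040. With gene totals alone 0 of these genes fell and 2 rose, and with upper-quartile scaling 1 fell and 1 rose. Of 29 initiation factor genes 9 fell and 2 rose, with a median of 0.022; the lowest p belonged to Eif2b5, of the guanine exchange factor for eIF2, at -0.42 (0.00221), Eif2s2, an eIF2 subunit, at -0.30 (0.00368), Eif1ax at -0.28 (0.0193) and Eif1a at -0.19 (0.0260). Among 16 genes listed for mTORC1 signalling and the control of translation, not of TOP mRNAs alone, 5 fell and 1 rose, with a median of -0.026. Eif4ebp1, the mTORC1-controlled inhibitor of the cap-binding factor eIF4E, had 35.5, 37.5 and 33.6 CPM in KO cells, against 76.2, 73.7 and 87.3 CPM in WT cells (log2 change -1.15 ± 0.084 (SE), adjusted p = 6.92e-05). Tsc1, an inhibitor of mTORC1 through Rheb, was at 0.79 (0.000795), Larp1b at -0.42 (0.00172) and Eef2k, the kinase that inactivates eEF2, at -0.63 (0.00345). With spike-in scaling Eif4ebp1 was at -1.03 and passed (adjusted p = 1.15e-05). The list medians were then 0.090 for elongation, 0.15 for initiation, 0.11 for mTORC1 and translation control and 0.095 for other TOP mRNAs, beside 0.14 for all genes.

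Of 17 chaperones of ribosomal proteins and late assembly factors, 4 rose and 1 fell, beside 21.7% and 20.9% of all genes, with a median log2 change of 0.16. Tsr2, the escort of Rps26 in yeast, was at 0.41 (adjusted p = 0.00255), Lsg1, a GTPase that acts late on the large subunit, at 0.30 (0.00395), and Heatr3, which carries Rpl5, at 0.26 (0.0119). Rrs1, which in yeast helps load the Rpl5 and Rpl11 particle, was the 1 that fell, at -0.38 (0.00788). Mitochondrial ribosomal protein genes, which encode the separate ribosome of that organelle, took 0.403% ± 0.00668 of gene counts in KO cells and 0.383% ± 0.00906 in WT cells (SD, n = 3 each). All KO shares (0.395% to 0.408%) lay above all WT shares (0.378% to 0.394%). Under TMM, of 77 tested, 15 fell and 10 rose, beside 20.9% and 21.7% of all genes. With gene totals alone, the scale of the share, 5 fell and 21 rose, beside 2412 and 4453 of 16006 genes. The median was -0.030 under TMM and 0.11 with spike-ins. The differences between these lists and the ribosomal protein genes were not tested.

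In the authors' deposited table, 84 members have a log2 fold change, with a median of -0.12. By the authors' deposited table, with an adjusted p under 0.05, 22 members were lower and 2 higher, beside 22.5% lower and 23.3% higher over all genes with a value there.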

How the data were processed

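RNA of 6 cultures (3 KO, 3 WT) was examined, grouped by sample title. The authors deposited raw counts per gene, which were whole numbers, with a normalized signal per library, a log2 fold change, an adjusted p-value and a gene length. Per the submitters' processing notes, STAR, featureCounts, DESeq2 and DESeq were used on build GRCm38.p3; roles, versions and strand use in counting are not given in the sources used here. The counts entered the tests, the gene length set levels per kb, and the authors' normalized signal was not tested.

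Spike-in entries (92) were removed. Genes passing filterByExpr were fitted with edgeR 4.0.16 (quasi-likelihood, TMM, R 4.3.3), Benjamini-Hochberg adjusted over all 16006 tested genes, and called at 0.05; CPM uses TMM library sizes. A change is KO over WT. The same steps were tested on simulated data. Alternatives included DESeq2 1.42.0, limma 3.58.1 (voom), other scalings and filters, and each library left out. Members and lists were chosen with earlier results of these data known, and the named genes by fixed names plus the largest changes and levels. Positions came from GENCODE M21 and start sequences from RefSeq (66 of 86 members matched). Depth was 36011906 to 43141474 counts per library. Members whose reads could be shared with near-identical pseudogenes are uncertain; entries named -ps held 0.434% to 0.461% of member counts. Rps4l, not listed as protein coding, was not a member. Some single-gene results are not reported here, and such genes count in the totals but are not drawn.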

Additional observations from a re-analysis of the deposited data

How the results depend on the processing

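The 29 lower calls became 15 with upper-quartile scaling, 8 with gene totals alone and 0 with spike-ins. Lower calls over all 16006 genes were 2895, 2412 and 1363 there, against 3343 as reported. Among members they became 19 with a filter at a mean of 1 CPM (2817 of 12558 genes) and 18 with the length trend removed (3418 of 16006). There were 4 after adjusting for Y-linked RNA (1648 of 16006), and 11 to 30 when each library was left out (2469 to 3488 genes). The 2 higher calls became 7 with gene totals, 1 with spike-ins and 1 among canonical members. Remaining settings, apart from KO limited to replicate 2, kept both counts within 1.5 times. The median of -0.13 became -0.080, -0.018, 0.00727 and -0.092 with upper-quartile, gene total, spike-in and length settings, -0.084 with KO limited to replicate 2 and -0.087 after the Y-linked adjustment, and ran over -0.15 to -0.10 in leave-one-out fits. The subunit difference was 0.021 after the Y-linked adjustment and ran from -0.032 to 0.00707 when each library was left out. The difference in share was 0.0728 percentage points with KO limited to replicate 2 and -0.186 to -0.0180 in leave-one-out values. The fit with 1 KO library assumes that it varies as the WT libraries do. The causes were not tested, beyond the smaller samples and the rescaling itself. Many of the 40 named members were not called as reported and had no call to lose. Of those called, 16 lost the call with spike-ins, where Rps27l alone kept it. After the Y-linked adjustment 14 lost it, and with gene totals 8. It was lost by 2 to 7 when one library was left out. Under any other setting, apart from KO limited to replicate 2, at most 4 lost it.

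The labels state no pairing of the cultures by replicate number. Deviations of same-numbered KO and WT libraries correlated at -0.0242, 0.00599 and 0.0815 over all tested genes. Over tested members the same correlations were -0.262, -0.689 and -0.498. With 3 libraries a group these values cannot decide whether the cultures were paired. A fit with the replicate number as a block called 2 members higher and 20 lower with a median of -0.13. Over all 16006 genes it called 3202 higher and 2988 lower.

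Some of the 40 named members changed sign. With KO limited to replicate 2, the log2 change was 0.036 for Rpl7, 0.019 for Rps27 and 0.00255 for Rpl23a. After adjusting for Y-linked RNA, the log2 change was 0.052 for Rpl7, 0.035 for Rps27 and 0.00352 for Rpl23a. With gene totals alone, the log2 change was 0.051 for Rpl7, 0.035 for Rps27, 0.050 for Rps19, 0.024 for Rplp1 and 0.073 for Rpl23a. With the length trend removed, the log2 change was 0.022 for Rpl23a. With spike-in scaling, the log2 change was 0.024 for Rpl3, 0.075 for Rpl7, 0.062 for Rps27, 0.00421 for Rps4x, 0.00741 for Rps3, 0.074 for Rps19, 0.00694 for Rpl38, 0.046 for Rplp1 and 0.091 for Rpl23a. With upper-quartile scaling, the log2 change was 0.011 for Rpl23a. When each library was left out, Rpl39l ran from -0.59 to 0.91, Rps14 ran from -0.030 to 0.056, Rpl10 ran from -0.025 to 0.065 and Rpl13a ran from -0.32 to 0.39 on the log2 scale. None of these named genes was called as reported, and Rpl13a alone among them passed after reversing, without WT replicate 2.

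With 3 libraries a group and spike-ins at 0.161% to 0.216% of counts, changes of the size seen for most members could not be told from 0 with spike-in scaling. Outside the named genes, Rpl14 and Rpl27a, called lower as reported, were at 0.00266 and 0.00713 with spike-ins, and members with a negative change numbered 36, against 72 as reported.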
